A study of Drosophila melanogaster with 9 samples.

Results

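ATAC-Seq peaks at the start sites of long noncoding RNA (lncRNA) genes were followed in cultured Drosophila melanogaster S2R+ cells kept at 14, 25 or 29 °C. A peak was included when it came within 500 bp of an annotated transcription start site (TSS) of a gene whose symbol begins with lncRNA: or asRNA: (the prefix of antisense RNA genes), and when no TSS of a protein-coding gene was within 500 bp of it. This rule used the annotation of the dm6 genome and no count. It gave 389 of the 17175 peaks in the deposited count table, or 2.26%, at 338 genes (each peak assigned to the nearest such TSS) of the 2450 annotated genes with these prefixes. The 9 libraries came from S2R+ cells, an established cell line of embryonic origin with properties of blood cells, and each temperature had 3 replicate cultures. All cultures first grew for 36 h at 25 °C, then stayed for 24 h at 14, 25 or 29 °C, and tagmentation was done at 25 °C for every sample, so that rapidly reversible changes could not be seen. Per the study's methods, the cultures meant for 14 °C were plated with more cells than the others, which the labels do not state, so plating number and cool temperature cannot be told apart. No genetic change or drug separates the groups, and each is a population of a single line.

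Long noncoding RNAs are transcribed by RNA polymerase II, are often capped and spliced like messenger RNAs, and do not encode a long protein. Some act as RNAs: roX1 and roX2 guide the MSL complex to the X chromosome for dosage compensation in male flies and male cell lines, and Hsromega RNA holds hnRNP proteins in nuclear omega speckles and is known for its strong induction by heat shock. Others are the primary transcripts of microRNAs such as bantam, mir-8 or let-7, and many carry only a CR number and have no known role. In ATAC-Seq the Tn5 transposase cuts DNA where nucleosomes leave it open, so a peak marks open chromatin at a promoter or enhancer. It does not measure the RNA, and in bulk cells a site open in more cells and a site more open in each cell cannot be told apart.

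The sequences shown here are 201-base windows around peak centres, read from the NCBI Release 6 (dm6) genome and written 5′ to 3′ along the strand of the lncRNA gene. They were chosen because 6 of them belong to peaks that passed the test between 14 and 29 °C described below. The start-site peak of roX1 is set beside its inner peak. The promoters of the bantam host lncRNA:CR43334 and of Hsromega are the tallest member and the best known heat-responsive one. Capitals mark exact matches on either strand to 9 short motifs: TATCGATA (the DRE of housekeeping promoters), GGTCACAC (the core of Motif 1, bound by M1BP), TATAAA (the core promoter box of that name), TCAGT (Initiator), GAGAGA (bound by GAGA factor and CLAMP), CAGCTG (an E-box), CCGGAAGT (an ETS site), the STAT dimer motif TTCNNNGAA and a heat shock element of 3 units. The windows lie at chrX:19788361-19788561 on the minus strand (lncRNA:CR44885), chr2L:18735874-18736074 on the plus strand (lncRNA:CR44769), chrX:3861216-3861416 and chrX:3862575-3862775 on the minus strand (the inner and start-site peaks of lncRNA:roX1), chr3L:813038-813238 on the plus strand (lncRNA:CR44537), chr2L:19911103-19911303 and chr2L:1217943-1218143 on the minus strand (lncRNA:CR43097 and lncRNA:CR43263), chr3L:628265-628465 on the plus strand (lncRNA:CR43334) and chr3R:21295777-21295977 on the plus strand (lncRNA:Hsromega).
lncRNA:CR44885: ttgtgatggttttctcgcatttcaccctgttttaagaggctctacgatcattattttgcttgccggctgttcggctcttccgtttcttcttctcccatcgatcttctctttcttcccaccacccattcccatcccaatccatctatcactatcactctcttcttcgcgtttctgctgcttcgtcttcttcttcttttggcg
lncRNA:CR44769: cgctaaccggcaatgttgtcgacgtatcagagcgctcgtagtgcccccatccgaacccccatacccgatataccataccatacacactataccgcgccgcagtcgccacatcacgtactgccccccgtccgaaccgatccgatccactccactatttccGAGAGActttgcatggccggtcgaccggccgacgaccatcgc
lncRNA:roX1 inner peak: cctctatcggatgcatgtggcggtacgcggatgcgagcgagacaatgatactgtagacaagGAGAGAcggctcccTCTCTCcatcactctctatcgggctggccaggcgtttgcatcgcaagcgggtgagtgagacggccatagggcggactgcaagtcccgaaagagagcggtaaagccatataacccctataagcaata
lncRNA:roX1 start-site peak: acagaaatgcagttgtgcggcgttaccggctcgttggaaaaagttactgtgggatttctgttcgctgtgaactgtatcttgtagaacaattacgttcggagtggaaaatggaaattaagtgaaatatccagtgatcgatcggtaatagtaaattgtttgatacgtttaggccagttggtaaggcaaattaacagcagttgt
lncRNA:CR44537: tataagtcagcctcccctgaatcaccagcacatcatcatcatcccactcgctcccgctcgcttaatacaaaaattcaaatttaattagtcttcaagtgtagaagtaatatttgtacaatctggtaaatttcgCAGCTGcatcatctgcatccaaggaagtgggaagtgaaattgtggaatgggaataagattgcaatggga
lncRNA:CR43097: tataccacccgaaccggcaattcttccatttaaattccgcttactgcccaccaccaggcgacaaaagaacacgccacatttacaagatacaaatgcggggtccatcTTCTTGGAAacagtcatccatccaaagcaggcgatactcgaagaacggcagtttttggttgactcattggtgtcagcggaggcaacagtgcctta
lncRNA:CR43263: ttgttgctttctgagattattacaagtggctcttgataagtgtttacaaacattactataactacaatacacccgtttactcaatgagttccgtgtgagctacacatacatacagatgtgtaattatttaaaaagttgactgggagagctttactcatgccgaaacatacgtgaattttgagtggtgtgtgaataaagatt
lncRNA:CR43334: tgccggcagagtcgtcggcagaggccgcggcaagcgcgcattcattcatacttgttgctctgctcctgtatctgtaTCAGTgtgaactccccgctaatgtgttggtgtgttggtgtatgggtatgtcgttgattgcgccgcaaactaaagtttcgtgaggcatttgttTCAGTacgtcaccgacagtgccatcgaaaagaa
lncRNA:Hsromega: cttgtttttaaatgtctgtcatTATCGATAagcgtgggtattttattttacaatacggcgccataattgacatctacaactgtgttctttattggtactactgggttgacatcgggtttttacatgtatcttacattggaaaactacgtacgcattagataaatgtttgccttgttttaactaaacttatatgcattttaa

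Among these windows, that of the roX1 inner peak held 2 matches to GAGAGA, 1 on each strand, and the roX1 start-site window held none. The windows of lncRNA:CR44885, lncRNA:CR43263 and the roX1 start-site peak held no match to any of the 9 motifs. Over the whole peak, lncRNA:CR44885 held 1 Initiator match and the roX1 start-site peak 2. In the lncRNA:CR44885 window 75.1% of the bases along the gene's strand were pyrimidines, against 43.8% to 57.7% in the other 8 windows shown. The bantam host window held 2 Initiator matches, 22 bp before and 70 bp after the peak centre, and the Hsromega window held a DRE 74.5 bp before its centre and no heat shock element. Over the 362 member peaks of exactly 500 bp, a DRE was found in 8 (2.21%) and the Motif 1 core in 4 (1.10%). Among 6773 protein-coding promoter peaks of that width these shares were 10.1% and 10.2%, and among all 15999 peaks of that width 4.83% and 4.91%. The other core elements had closer shares in lncRNA and protein-coding promoter peaks: TATAAA was in 42.0% against 46.1% (40.8% of all), and TCAGT in 61.9% against 62.4% (60.6% of all). GAGAGA was in 30.4% of lncRNA promoter peaks, against 25.6% of protein-coding ones and 24.0% of all. CAGCTG was in 19.3%, against 29.8% and 26.1%. The STAT motif was in 10.2%, against 13.5% and 12.6%, the ETS site in 0.829%, against 0.768% and 1.01%, and the heat shock element in 0 of 362 peaks, against 0.783% and 0.550%. These are shares of letter matches, with no test, and do not show that a factor bound.

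The 389 peaks comprised 325 at lncRNA: genes and 64 at asRNA: genes. Before protein-coding start sites were excluded there were 728 peaks near such a TSS, so 339 were shared with a protein-coding promoter. The nearest protein-coding TSS lay at a median of 3077 bp from the edge of a member (505 to 50608 bp), under 1000 bp in 71 members and over 10000 bp in 77. The noncoding TSS itself was inside 169 of the peaks (43.4%), and the median distance from peak centre to TSS was 315 bp. Centres were about as often upstream of the TSS (184) as downstream (205), and 62 were within 100 bp of it, so many of these peaks are near a noncoding start site without being centred on it. By position of the TSS, 238 were between protein-coding genes, 118 inside a protein-coding gene on its opposite strand and 33 inside one on the same strand. Members that share a gene are not independent: 47 genes had 2 or 3 peaks, and 13 peaks were near the TSS of more than 1 gene. The X chromosome held 41 of them (10.5%), against 16.1% of protein-coding promoter peaks and 15.2% of all peaks, and arm 3L 105 (27.0%), against 19.8% and 20.9%.

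The libraries held 3290670 to 10805366 counts in peaks, of which lncRNA promoter peaks took 2.76% to 3.54%. The least covered member in any library had 22 counts. Counting error came to 5.80% for a member at the median mean count of 297, against a biological coefficient of variation of 22.7%. Libraries differed in how far tall and low peaks stood apart: the SD of log2 CPM over all peaks was 0.738, 1.06 and 0.768 at 14 °C, 0.888, 0.942 and 1.14 at 25 °C and 1.01, 1.31 and 1.04 at 29 °C for replicates 1 to 3. Replicate 2 at 14 °C therefore resembled the warmer libraries in this measure more than the other 14 °C libraries did. Of 9 hemocyte markers, 7 genes had a peak at a start site, among them srp, Pxn and eater, whereas Hml and NimC1 had none. fz and fz2 both had one. Peaks were also found at 1 of 4 neuron, 1 of 3 muscle and 1 of 2 ovarian soma markers, and at none of the 3 fat body markers or of the 2 of 3 germline markers found in the annotation.

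At 25 °C most lncRNA promoter peaks were of ordinary height, but the upper end of the range was well filled. The level, in CPM (counts scaled to library size as a rate per 1e6) per 500 bp of peak, had a median of 39.7 (quartiles 26.8 and 86.7), against 42.5 (29.5 and 66.6) at protein-coding promoter peaks and 32.6 (25.2 and 52.6) at peaks near neither kind of TSS. The 90th percentile was 166 in lncRNA promoter peaks, against 107 and 98.6. Of the 389, 83 (21.3%) were in the top 10% of all peaks by level, against 10.7% of protein-coding promoter peaks and 9.01% of the peaks at neither. Their GC content was similar to that of all peaks, with medians of 44.3% and 43.7%.

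**Figure D1:**
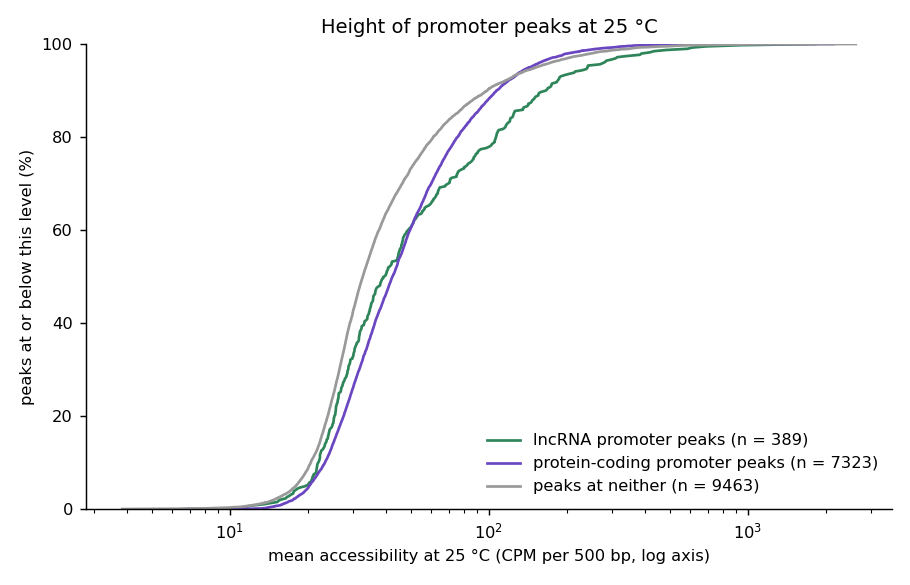
Cumulative share of peaks (%) against mean accessibility at 25 °C (CPM per 500 bp, log axis, mean of 3 libraries) for 389 lncRNA promoter peaks, 7323 protein-coding promoter peaks and 9463 peaks at neither. The lncRNA curve runs close to the protein-coding one up to the median and to its right above it, with 90th percentiles of 166 and 107.

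The tallest member was the start-site peak of lncRNA:CR43334, the primary transcript of the growth-promoting microRNA bantam, at 1827 ± 260 CPM (SD, n = 3) at 25 °C. It ranked 4 among all 17175 peaks, and the second peak of this gene, at 691 ± 158 CPM, ranked 32. lncRNA:CR46036, which starts antisense inside osa (a subunit of the Brahma remodelling complex), had 937 ± 166 CPM and ranked 13. lncRNA:CR43644, whose peak lay 706 bp from the start site of the Notch target E(spl)m3-HLH, had 610 ± 99.0 CPM. lncRNA:CR42719 had 586 ± 39.8 CPM and stood on arm 3L near the bantam host. Others among the 10 tallest began inside genes of known regulators: lncRNA:CR45808 in Hipk, a kinase, at 485 ± 66.2 CPM, lncRNA:CR46090 in pnt, an ETS transcription factor, at 434 CPM per 500 bp, lncRNA:CR44868 antisense in beat-Ib at 419 ± 110 CPM, and lncRNA:CR45820 antisense in Eip63E, a cyclin-dependent kinase gene, at 384 ± 46.9 CPM. lncRNA:CR44526, at 388 ± 130 CPM, stood 16363 bp from the start site of hry, the pair-rule repressor hairy. All 10 had a lower mean at 14 °C than at 29 °C, with log2 fold changes between -0.95 and -0.46. Over all peaks above 61.5 CPM per 500 bp at 25 °C the median was -0.45. None of the 10 passed the threshold (edgeR, adjusted p between 0.116 and 0.255). In DESeq2, where 12.6% of all peaks passed, the lowest adjusted p among them was 0.0187, at lncRNA:CR42719.

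Between 14 and 29 °C, 7 of the 389 lncRNA promoter peaks passed an adjusted p of 0.05 in edgeR's quasi-likelihood test, or 1.80%, where 1.22% of all peaks did. Of these 5 were higher at 14 °C (0.559% of all peaks were) and 2 were lower (0.664% of all). With RLE scaling the counts were 3 and 2, or 1.29% of the members, against 1.00% of all peaks. The p-values measure the spread between these replicate cultures of a single line. Without adjustment 153 members had p under 0.05 (39.3%, against 33.3% of all peaks), and in 120 (30.8%) the 3 libraries of each temperature did not overlap, against 27.9% of all peaks. The median log2 fold change, 14 over 29 °C, was 0.00 (quartiles -0.46 and 0.62), against 0.02 over all peaks, -0.17 at protein-coding promoter peaks and 0.31 at peaks of neither kind. In 299 members the mean at 25 °C lay between the other means, and this was not counted over all peaks. It also did in all 7, which were picked by their difference between 14 and 29 °C. Of the 11 start-site peaks of 7 hemocyte marker genes, 2 passed the threshold as lower at 14 °C and 0 as higher. Over all peaks these shares were 0.664% and 0.559%. The 2 were at Col4a1 and vkg, collagen IV chains. The median log2 fold change of the 11 was -0.50 (from -1.73 to 0.03), and their part in the results was not tested. The count of members past the threshold depended on single libraries. At 14 °C it was 1 without replicate 1 (0.257%, against 0.0582% of all peaks) and 0 without replicate 3 (0% of all peaks). At 25 °C it was 3, 1 and 6 without replicates 1, 2 and 3 (0.771%, 0.257% and 1.54%, against 0.640%, 0.0932% and 1.25% of all peaks). At 29 °C it was 1 without each replicate in turn (0.257%, against 0.0640%, 0.0524% and 0.0932% of all peaks). Without replicate 2 at 14 °C it was 232 (59.6%, against 49.7% of all peaks). Blocking on replicate number gave 16 (4.11%, against 2.79% of all peaks). All 7 were among both the 16 and the 232, which come from fits that passed larger shares of all peaks than 1.22%.

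The peak of lncRNA:CR44885 fell furthest at 14 °C. It lies at chrX:19788211-19788711 (dm6), centred 305 bp upstream of the TSS at 19788156 and between genes, 4663 bp from the start site of zld, which encodes the pioneer factor Zelda. Its accessibility was 15.3, 17.2 and 16.1 CPM at 14 °C, 43.4, 50.7 and 59.7 CPM at 25 °C and 64.6, 92.8 and 71.1 CPM at 29 °C. The 3 temperatures did not overlap, and the SD was 0.921 CPM at 14 °C, against 14.8 CPM at 29 °C. This was a log2 fold change of -2.23 with an SE of 0.19 (edgeR adjusted p = 0.00270, range over alternatives 3.88e-46 to 0.0522), and the alternative that missed the threshold left out replicate 3 at 14 °C. The nearest protein-coding promoter peak, at zld 4793 bp away, had means of 21.2, 25.1 and 21.9 CPM at 14, 25 and 29 °C, with a log2 fold change of -0.04 between 14 and 29 °C (adjusted p = 0.897). Of all 389 members, lncRNA:CR44885 had the lowest fold change in this comparison.

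lncRNA:CR44769 also fell at 14 °C. Its peak, at chr2L:18735724-18736224, holds the TSS and stands between genes, 3200 bp from the start site of CG10348. The values were 44.6, 44.6 and 54.2 CPM at 14 °C, 86.0, 80.2 and 81.7 CPM at 25 °C and 103, 126 and 97.5 CPM at 29 °C, with no overlap between any temperatures. The log2 fold change between 14 and 29 °C was -1.19 (SE 0.18, edgeR adjusted p = 0.0229, range over alternatives 1.30e-11 to 0.127), and it passed in 3 of the 9 fits without 1 library. The promoter peak of CG10348 had means of 131, 168 and 209 CPM at 14, 25 and 29 °C, and its log2 fold change of -0.67 did not pass (adjusted p = 0.143).

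Among the 5 peaks that rose at 14 °C, the tallest was at lncRNA:roX1. This gene on the X chromosome had a peak over its upstream start site (chrX:3862425-3862925) and an inner peak at chrX:3861066-3861566, centred 745 bp downstream of another annotated start inside the gene. The inner peak had 190, 297 and 219 CPM at 14 °C, 136, 123 and 104 CPM at 25 °C and 100, 86.4 and 111 CPM at 29 °C. All 14 °C libraries were above all others, and the log2 fold change over 29 °C was 1.25 (SE 0.24, edgeR adjusted p = 0.0384, range over alternatives 6.79e-07 to 0.188, past the threshold in 2 of the 9 fits without 1 library). The start-site peak was lower, at 71.8, 55.0 and 75.4 CPM at 14 °C, 56.8, 63.6 and 49.1 CPM at 25 °C and 58.4, 35.5 and 44.4 CPM at 29 °C. Its temperatures overlapped, and a log2 fold change of 0.55 (SE 0.21) did not pass (adjusted p = 0.128). The difference between the 2 peaks of roX1 was not tested. The roX1 gene is known to carry a high-affinity site of the MSL complex inside its transcribed part, and whether the inner peak coincides with it was not tested.

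lncRNA:CR44537 had the largest absolute spread among its 14 °C replicates of the peaks that rose. Its peak (chr3L:812888-813388) holds the TSS, is 8837 bp from that of CG13898, and had 148, 290 and 168 CPM at 14 °C, 105, 97.9 and 109 CPM at 25 °C and 80.2, 91.8 and 63.6 CPM at 29 °C. The lowest library at 14 °C was still above all the others. The log2 fold change of 1.36 (with SE 0.28, by edgeR adjusted p = 0.0456, range over alternatives 1.90e-08 to 0.155) passed in 1 of the 9 fits without 1 library.

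The other 3 that rose at 14 °C were lower peaks. lncRNA:CR43097 (chr2L:19910953-19911453), inside and antisense to sick, 608 bp downstream of its TSS and 924 bp from the start site of the Turandot gene TotF, had 28.0, 27.4 and 30.5 CPM at 14 °C, 18.8, 14.4 and 12.7 CPM at 25 °C and 15.1, 9.61 and 7.24 CPM at 29 °C. The log2 difference from 29 °C was 1.40 (SE 0.27, edgeR adjusted p = 0.0384, range over alternatives 2.40e-12 to 0.174). lncRNA:CR43263 (chr2L:1217793-1218293), centred 258 bp upstream of its TSS, had 27.5, 33.9 and 25.1 CPM at 14 °C, 16.7, 15.98 and 19.99 CPM at 25 °C and 13.4, 11.04 and 17.3 CPM at 29 °C. Its log2 difference was 1.08 (SE 0.22, edgeR adjusted p = 0.0476, range over alternatives 8.16e-09 to 0.188). In both, every library at 14 °C was above every library at 25 and 29 °C, and each passed in 2 of the 9 fits without 1 library. asRNA:CR46471 starts on arm 2R inside sli, the gene of the axon guidance ligand Slit, on the opposite strand. Its peak is centred 692 bp downstream of its TSS, which lies outside the peak. Its values were 68.3, 75.8 and 67.6 CPM at 14 °C, 43.7, 52.4 and 44.0 CPM at 25 °C and 37.5, 32.4 and 42.2 CPM at 29 °C. These give a log2 fold change of 0.93 (with SE 0.16, by edgeR adjusted p = 0.0333, range over alternatives 1.28e-09 to 0.155), past the threshold in 3 of those 9 fits.

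**Figure D2:**
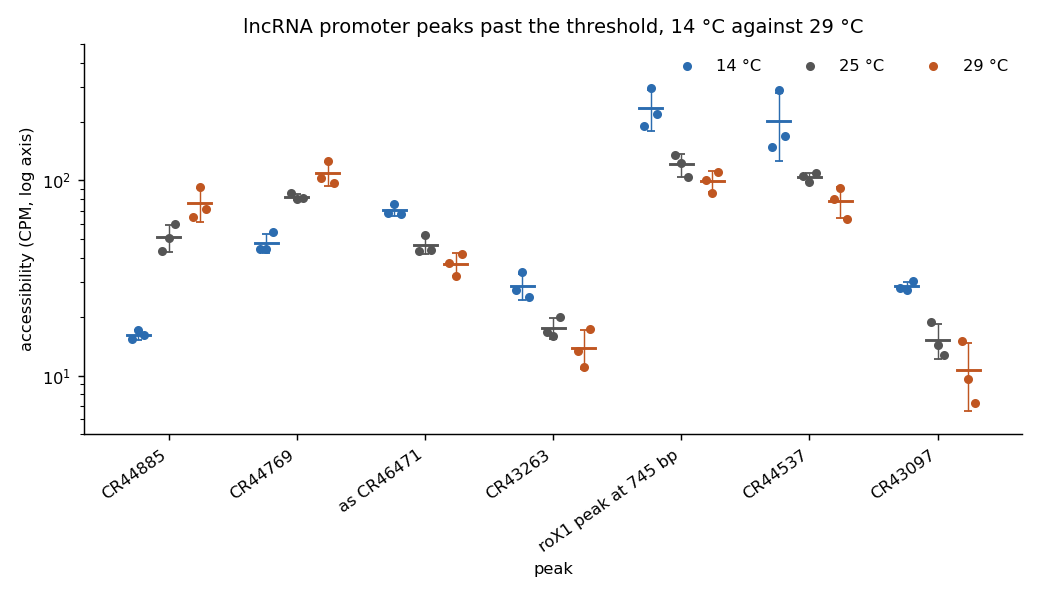
Accessibility (CPM, log axis) of the 7 lncRNA promoter peaks past the threshold between 14 and 29 °C; points are the 3 libraries of each temperature, horizontal bars their means and error bars the SD. lncRNA:CR44885 has 15.3 to 17.2 CPM at 14 °C and 64.6 to 92.8 CPM at 29 °C, and the 25 °C mean lies between the others in every peak.

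Close protein-coding promoters moved with some of these peaks. The peak at the start of CG33463, 563 bp from that of asRNA:CR46471, had means of 49.5, 30.3 and 24.2 CPM at 14, 25 and 29 °C and passed the threshold (log2 fold change 1.04, edgeR adjusted p = 0.0333). The peak at the start of CG42329, 694 bp from that of lncRNA:CR43263, had 39.3, 30.2 and 19.5 CPM and also passed (1.01, adjusted p = 0.0356). At these 2 loci the noncoding and the coding start share a stretch of chromatin, and their accessibility cannot be told apart by gene. For the other peaks that rose, the nearest protein-coding promoter peak was farther away and did not pass. It had a log2 fold change of 0.69 for lncRNA:CR44537 (9386 bp, edgeR adjusted p = 0.0940). For the inner roX1 peak it had -0.53 (7528 bp, 0.148) and for lncRNA:CR43097 -0.26 (24065 bp, 0.392), opposite in sign to the member. For all 389 members the log2 fold changes of the member and of the nearest protein-coding promoter peak (313 distinct peaks, median distance 5991 bp) had a correlation across peaks of r = 0.45 (rho = 0.47) and the same sign in 253. Among the 96 pairs within 2000 bp it was r = 0.63 (rho = 0.62). Both values of a pair come from the same libraries and share their depth and scaling, so the correlations only describe these peaks.

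The replicate block added 9 peaks to the 7, in a fit that passed 2.79% of all peaks. By the rule given below, replicate numbers did not pair the 25 °C libraries with the others. Of the 9 added peaks, 8 were lower at 14 °C. lncRNA:CR46061 had means of 144, 309 and 352 CPM at 14, 25 and 29 °C (blocked log2 fold change between 14 and 29 °C -1.32, edgeR adjusted p = 0.0459). asRNA:CR44114, antisense inside sau, a Golgi protein gene, had 97.6, 184 and 228 CPM (-1.28, adjusted p = 0.0457). lncRNA:CR45404 had 44.6, 76.9 and 94.6 CPM, lncRNA:CR45393 75.5, 116 and 159 CPM, and lncRNA:CR42746, antisense inside bun, a TSC22-like growth regulator, 62.9, 70.9 and 118 CPM. lncRNA:CR44281, antisense inside ptc, the Hedgehog receptor, had 71.4, 100.1 and 135 CPM. The remaining 2 of the 8 were at the mir-282 host. The single added peak with a higher level at 14 °C was at asRNA:CR46128, inside alpha-Est4, with 41.8, 27.6 and 17.2 CPM. In the fit without the block, the adjusted p of these 9 was between 0.0659 and 0.0961. Of these 9, lncRNA:CR46061, asRNA:CR44114, lncRNA:CR45404 and asRNA:CR46128 were singled out after their values were seen.

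The direction of change followed the height of a peak. Members were split into 3 bands of about equal number by their level at 25 °C, at 30.1 and 61.5 CPM per 500 bp. The median log2 fold change, 14 over 29 °C, was 0.61 in the lowest band, 0.12 in the middle and -0.57 in the highest, where 11 of 130 members were above 0, against 111 of 130 in the lowest. Over all peaks between the same limits the medians were 0.44, 0.02 and -0.45, at protein-coding promoter peaks 0.11, -0.12 and -0.45, and at peaks of neither kind 0.61, 0.31 and -0.44. Across peaks, fold change and log2 level had r = -0.67 (rho = -0.70) in lncRNA promoter peaks and r = -0.55 (rho = -0.56) over all peaks, which describes these 9 libraries and is no test. The SD of log2 CPM over peaks moved with it, at 0.738 to 1.06 at 14 °C and 1.01 to 1.31 at 29 °C, and its part in these fold changes was not tested. With offsets per library that remove the trend against height, 26 members passed (12 higher and 14 lower at 14 °C; 4.91% of all peaks passed). Among the 7 named above lncRNA:CR43263 was lost (adjusted p = 0.108), and lncRNA:CR44537 and the inner roX1 peak had log2 fold changes of 1.81 and 1.76. Both are tall peaks that rose at 14 °C, opposite to the median of peaks of their height.

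**Figure D3:**
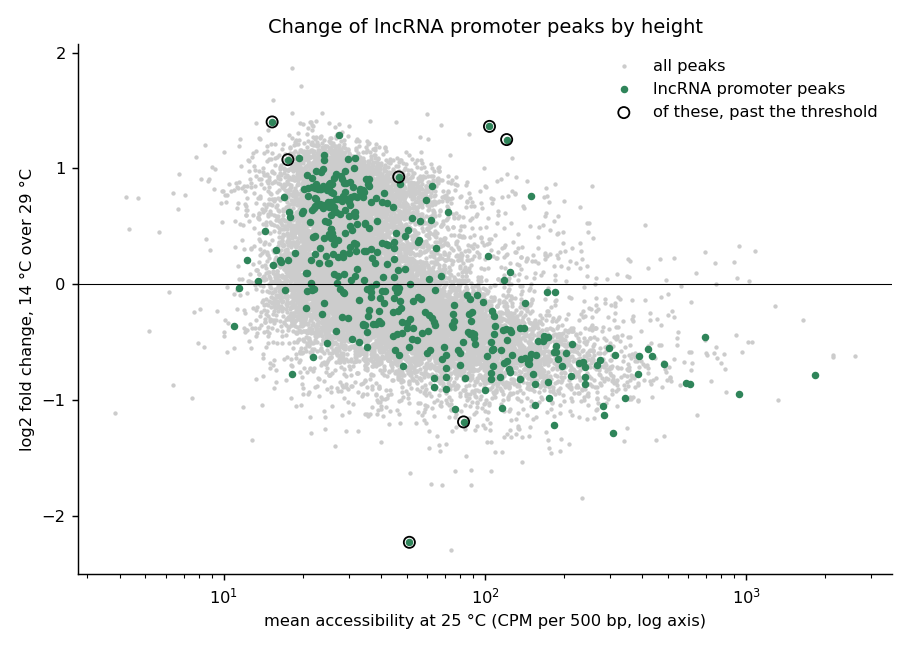
Log2 fold change of accessibility (14 °C over 29 °C) against mean accessibility at 25 °C (CPM per 500 bp, log axis) for all 17175 peaks in grey and the 389 lncRNA promoter peaks in green, with the 7 past the threshold circled. Member medians are 0.61 in the lowest of 3 bands of height and -0.57 in the highest, and lncRNA:CR44885 lies at -2.23 below all other members.

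Other groups of members had medians closer to 0 in the same comparison. Peaks at asRNA: genes had a median log2 fold change of 0.18 and a median level of 35.5 CPM per 500 bp, against -0.05 and 41.9 at lncRNA: genes. Peaks with the TSS inside had -0.11 and 40.7 CPM per 500 bp, against 0.18 and 37.5 where it was outside. Those past the threshold numbered 2 with the TSS inside and 5 with it outside (1.22% of all peaks passed). Antisense members had a median of 0.05, those between genes 0.01 and those on the sense strand of a gene -0.07. The 41 X-linked members had -0.16 and the 348 others 0.04, with 2 and 5 past the threshold (1.22% of all peaks passed). None of these differences between groups of peaks was tested.

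Genes that hold microRNAs had tall promoter peaks. The 19 peaks at 13 such genes had a median of 136 CPM per 500 bp at 25 °C (21.7 to 1827), against 38.2 in the other 370, and 14 of them held the TSS. Above 61.5 CPM per 500 bp at 25 °C, the median log2 fold change, 14 over 29 °C, was -0.57 in members and -0.45 over all peaks. In the 19 host peaks it was -0.48, with 2 above 0, and the part of height in it was not tested. None passed the threshold, 6 had unadjusted p under 0.05 and 6 did not overlap between the temperatures, where 33.3% and 27.9% of all peaks did so. The threshold was passed by 2 of the 19 with the replicate block (2.79% of all peaks) and by 5 in DESeq2 (12.6% of all peaks). It was passed by 14 with the block on only the 6 libraries of 14 and 29 °C, a fit in which 58.6% of all peaks and 69.4% of the members passed, and by 16 without replicate 2 at 14 °C, where 49.7% of all peaks did. At the bantam promoter the values were 1102, 1879 and 1273 CPM at 14 °C, 1528, 1959 and 1993 CPM at 25 °C and 2095, 2365 and 2879 CPM at 29 °C. All 29 °C libraries were above all 14 °C libraries, and the log2 fold change of -0.79 (with SE 0.28, by edgeR adjusted p = 0.120) was -0.01 in the fit with offsets against height (adjusted p = 0.943). Replicate 2 at 14 °C was the highest of its group there, as in all of the 10 tallest members.

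lncRNA:CR43626, the host of mir-282, had 3 peaks, and all were lower at 14 °C. The peak 134 bp upstream of a start site had 126, 260 and 140 CPM at 14 °C, 234, 282 and 337 CPM at 25 °C and 317, 416 and 423 CPM at 29 °C, with no overlap between 14 and 29 °C. With an SE of 0.32, its log2 fold change was -1.13 (edgeR, adjusted p = 0.0937), with the replicate block the adjusted p was 0.0489 and with offsets against height 0.0171. The peak 410 bp inside had 36.9, 61.2 and 41.2 CPM at 14 °C, 50.3, 61.3 and 79.0 CPM at 25 °C and 75.1, 102 and 81.2 CPM at 29 °C (log2 fold change -0.89, adjusted p = 0.0909, with the block 0.0482 and with the offsets 0.0324). The remaining peak, at another start site, had means of 149 ± 58.0, 241 ± 40.3 and 270 ± 58.7 CPM at the 3 temperatures (SD, n = 3), with -0.86 and adjusted p = 0.121, and the block gave 0.0603. These peaks lie within one gene and are not separate evidence.

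At the other microRNA hosts no difference between 14 and 29 °C passed the threshold, with or without the block on all 9 libraries. The mir-8 host lncRNA:CR43650 had 112 ± 40.4, 136 ± 22.2 and 146 ± 25.4 CPM at 14, 25 and 29 °C at one start site and 124 ± 51.5, 169 ± 29.7 and 171 ± 43.1 CPM at the other. At the mir-184 host lncRNA:CR44206 the 500 bp peak at a downstream start had 172 ± 61.7, 204 ± 38.1 and 260 ± 40.3 CPM. The 500 bp peak 572 bp downstream of that start had 197 ± 94.3, 276 ± 69.0 and 310 ± 94.4 CPM. The peak at the most upstream start, 957 bp wide, had 89.3 ± 9.55, 88.9 ± 3.76 and 92.8 ± 5.49 CPM (46.4 CPM per 500 bp at 25 °C). The hosts of mir-279 and mir-996 (lncRNA:CR31044), of mir-252 (asRNA:CR17025), of mir-275 (lncRNA:CR43857) and of mir-34 and mir-277 (lncRNA:CR43459) had log2 fold changes of -0.55, -0.65, -0.36 and -0.32 between 14 and 29 °C, with adjusted p between 0.222 and 0.451. lncRNA:CR46006, the mir-276a host, had 26.2, 49.4 and 36.0 CPM at 14 °C, against 51.9, 60.3 and 55.4 CPM at 29 °C, without overlap (log2 fold change -0.57, edgeR adjusted p = 0.121). Only 2 hosts had a fold change above 0. lncRNA:let7C, the ecdysone-responsive source of let-7, mir-100 and mir-125, had 40.3, 20.3 and 42.2 CPM at 14 °C, 35.1, 31.6 and 23.7 CPM at 25 °C and 28.3, 18.7 and 21.1 CPM at 29 °C (log2 fold change 14 over 29 °C 0.59, adjusted p = 0.186). lncRNA:CR45910, which holds mir-1000 antisense inside msi, had 28.4 ± 10.5, 24.0 ± 5.65 and 14.1 ± 2.49 CPM (1.00, adjusted p = 0.113).

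**Figure D4:**
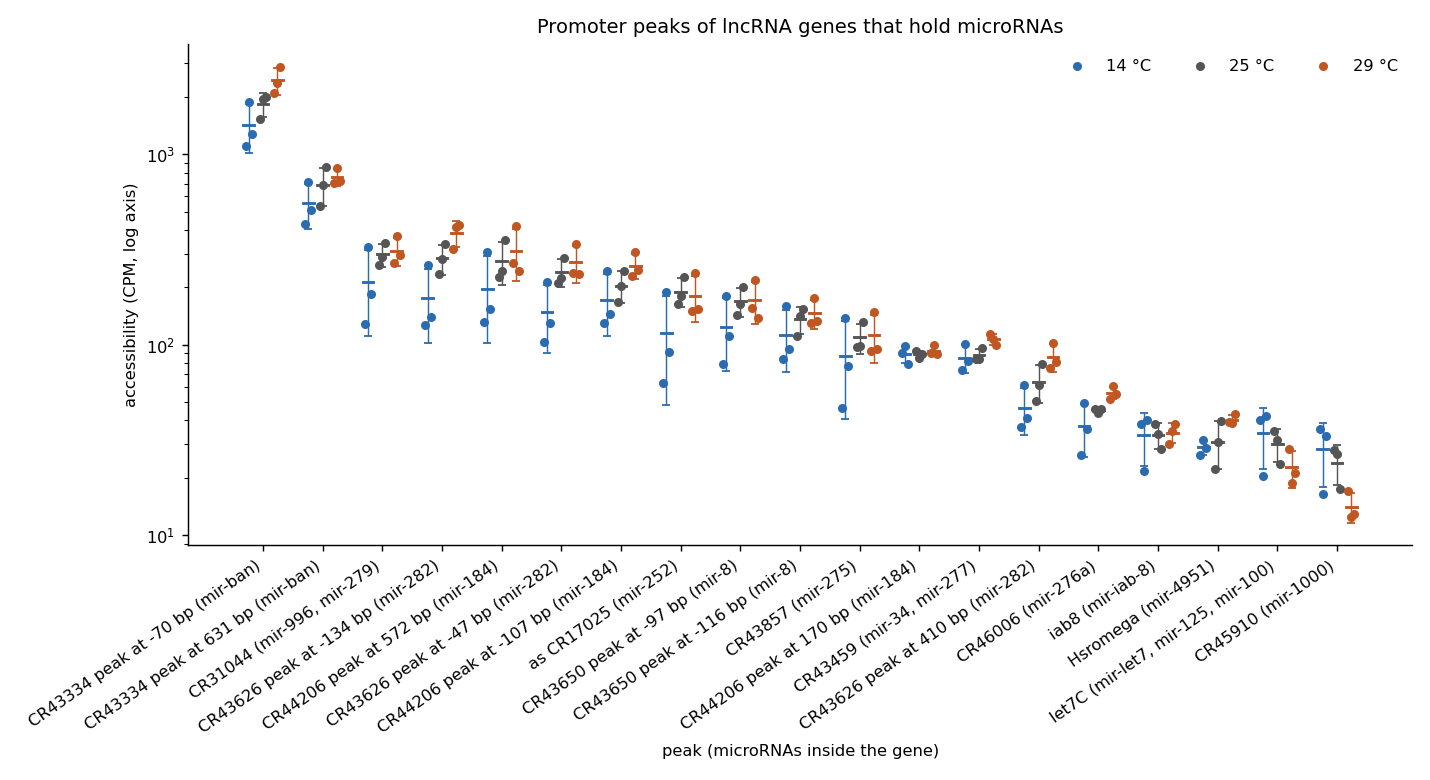
Accessibility (CPM per peak, not scaled to peak width, log axis) at the 19 promoter peaks of lncRNA and asRNA genes that hold microRNAs, ordered by their mean at 25 °C. Points are the 3 libraries of each temperature, horizontal bars the means and error bars the SD. The bantam start-site peak stands highest, at 1102 to 1879 CPM at 14 °C and 2095 to 2879 CPM at 29 °C, and the lowest hosts have under 50 CPM.

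Hsromega, the heat shock lncRNA, had a low peak that ends at its TSS. Its values were 26.2, 31.7 and 28.8 CPM at 14 °C, 22.4, 30.8 and 39.5 CPM at 25 °C and 39.4, 38.7 and 43.1 CPM at 29 °C. All 14 °C libraries were below all 29 °C libraries, whereas 25 °C overlapped both, and a log2 fold change of -0.48 (SE 0.22) did not pass (edgeR adjusted p = 0.151). Of the 5 genes of omega speckle proteins, all had promoter peaks, 7 in total, of which 0 passed in either direction (1.22% of all peaks passed). Of these 7, 2 had unadjusted p under 0.05, as did 33.3% of all peaks, and the median log2 fold change was -0.14. Of the 6 genes of roX partners (the MSL complex and Clamp), 5 had promoter peaks, 6 in total. None of these passed either, and 2 had unadjusted p under 0.05, beside the same 33.3% of all peaks. The median was -0.22, with msl-1 at -0.66 (edgeR adjusted p = 0.0975) and the 2 mle peaks at 0.23 and 0.49. The core proteins of snoRNPs, which work with RNAs released from noncoding host genes, had 7 promoter peaks at 7 of 8 genes, with 0 past the threshold and a median of -0.17.

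Members at other lncRNAs with a known name mostly had low peaks, and none passed the threshold. iab8, which spans part of the bithorax complex and holds mir-iab-8, had 33.5 ± 10.3, 33.5 ± 5.05 and 34.6 ± 4.11 CPM at 14, 25 and 29 °C (SD, n = 3). Its peak was 771 bp wide, so this was 21.7 CPM per 500 bp at 25 °C. flam, the piRNA cluster of the ovarian soma, had 14.8 ± 3.21, 15.4 ± 2.88 and 13.5 ± 2.93 CPM, among the lowest of the named members. acal, a regulator of JNK signalling in the embryo, had 89.2 ± 27.5, 71.8 ± 24.2 and 58.1 ± 15.1 CPM. bsAS, antisense to the SRF gene bs (blistered), had 71.5, 129 and 78.7 CPM at 14 °C, 112, 131 and 131 CPM at 25 °C and 143, 172 and 159 CPM at 29 °C. Its 14 and 29 °C libraries did not overlap, and a log2 fold change of -0.76 (SE 0.25) did not pass (edgeR adjusted p = 0.116). CRG, inside CASK, had 30.5 ± 7.33, 22.0 ± 8.14 and 23.4 ± 13.4 CPM, and marge 42.2 ± 7.52, 48.1 ± 7.27 and 53.0 ± 8.94 CPM. TS25 had 23.8 ± 9.32, 20.9 ± 4.40 and 12.5 ± 4.21 CPM, and Vinr 35.7 ± 3.67, 41.5 ± 9.02 and 37.6 ± 9.84 CPM. At dntRL the peak 381 bp downstream of the TSS had 50.5 ± 5.01, 45.5 ± 1.80 and 36.8 ± 7.98 CPM and the upstream peak 17.3 ± 2.75, 13.5 ± 2.94 and 17.0 ± 3.69 CPM. In edgeR's test between 14 and 29 °C the adjusted p of these peaks was between 0.116 and 0.939.

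The 2 comparisons with 25 °C, which share the 25 °C libraries with each other and 1 temperature each with the comparison above, gave far fewer calls. Between 14 and 25 °C, 1 member passed, against 0.00582% of all peaks: lncRNA:CR44885 was the single peak of the whole table to do so (log2 fold change -1.66, SE 0.19, edgeR adjusted p = 0.0487). That call remained in 1 of the 9 fits without 1 library (the fit without replicate 2 at 29 °C). Without adjustment 30 members had p under 0.05 (7.71%, against 5.33% of all peaks), and the median log2 fold change, 14 over 25 °C, was 0.05. Between 29 and 25 °C, 0 members passed (0% of all peaks) in edgeR and 0 in DESeq2 (0.143% of all peaks), 16 had unadjusted p under 0.05 (4.11%, against 4.58% of all peaks), and the median, 29 over 25 °C, was 0.01 with a range from -0.76 to 0.88. lncRNA:CR44885 had a log2 fold change of 0.57 there (adjusted p = 0.822). The temperature step from 25 to 29 °C is smaller than that from 25 to 14 °C, and the difference between the 2 responses was not tested.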

How the data were processed

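The authors trimmed reads, mapped them to dm6 using Bowtie2, dropped reads that were duplicate, mitochondrial or not unique, shifted reads for the Tn5 footprint, called peaks per library with MACS2 and counted reads with DiffBind in consensus peaks (centred again on each summit). The deposited raw table holds whole read counts per peak, not normalized. The authors' second table holds a signal, the raw counts minus 1 divided by a size factor, and only gave their scaling. Columns without a sample numbered 0, and no peak was left out.

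Counts of all 9 libraries were fitted with edgeR 4.0.16 in R 4.3.3 (TMM, robust quasi-likelihood, 3 temperature levels, 6 residual degrees of freedom), although the study used DESeq2, and p-values were adjusted (Benjamini-Hochberg) over all 17175 peaks. The SE is the fold change divided by the square root of F. CPM values use TMM factors. Start sites are those of Ensembl release 115. Whether deposited peak starts count from 0 or 1 is not stated, and they were read as 1-based. The fit was also run on simulated counts with known changes. These gave every peak the same biological variation and lacked the differences in spread between libraries.

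Members, motifs and gene lists were chosen with earlier results of these data known. Named peaks are those past the threshold, the 5 with the smallest p in each direction between 14 and 29 °C, the 10 highest at 25 °C, those at lncRNAs with a name, and those at hosts of small RNAs.

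Replicate numbers pair the 14 and 29 °C libraries by a rule on correlated deviations from group means (0.634, 0.826 and 0.538 for equal numbers, though unequal numbers 1 and 3 gave 0.559 and 0.551). For 14 and 25 °C (0.671, -0.453, -0.737) and for 29 and 25 °C (0.528, -0.488, -0.601) they do not. Alternatives were other scalings, offsets against height or GC content (loess span 0.3), a filter on low counts, the block, only the libraries compared, DESeq2 1.42.0, other member rules, a threshold of 0.1 and each library left out.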

Additional observations from a re-analysis of the deposited data

How the results depend on the processing

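Of the 7 lncRNA promoter peaks past the threshold between 14 and 29 °C, all also passed with the replicate block, in DESeq2 and without replicate 2 at 14 °C. Those fits passed 2.79%, 12.6% and 49.7% of all peaks, where the fit behind the 7 passed 1.22%, so passing in them adds little to the calls. The 7 were 1.80% of the members, against 1.22% of all peaks, and the parentheses give these shares under each alternative fit. RLE scaling gave 5 (1.29%, against 1.00%) and the authors' scaling 7 (1.80%, against 1.11%). The count was 13 with scaling by the total count (3.34%, against 2.42%), 26 with offsets against peak height (6.68%, against 4.91%), 14 with offsets against GC content (3.60%, against 3.45%) and 15 with a filter on low counts (5.00% of 300, against 3.47% of the 12884 peaks whose mean count reached 182). It was 16 with the replicate block (4.11%, against 2.79%), 29 with block and height offsets (7.46%, against 6.38%), 66 with block and GC offsets (17.0%, against 12.4%), and 270 with the block on only the 6 libraries compared (69.4%, against 58.6%), where it was 1 without the block (0.257%, against 0.0349%). DESeq2 gave 68 (17.5%, against 12.6%), and an adjusted p under 0.1 gave 29 (7.46%, against 5.39%). Other member rules gave 4 of 313 peaks with a window of 250 bp and 4 of 311 with the peak centre within 500 bp. They gave 4 of 317 with no protein-coding TSS within 1000 bp and 7 of 424 with gene starts only. Beside each of these stands the same 1.22% of all peaks. Without 1 library the count ranged from 0 to 232 (0% to 59.6%, against 0% to 49.7%). The median log2 fold change, 0.00156, became 0.147 with total scaling (the median of all peaks became 0.16) and -0.0693 with the filter. It became -0.0528, -0.0569 and -0.0309 with the 250 bp, centre and 1000 bp rules, -0.0520 with gene starts only (424 peaks), and -0.0185 to 0.0578 without 1 library. Between 14 and 25 °C the count of 1 became 0 with RLE scaling and, with or without the block, on only the 6 libraries, 6 with height offsets (1.54%, against 0.472%, or 0.448% with the block), 4 in DESeq2 (1.03%, against 0.425%), and 0 to 1 without 1 library. The median of 0.0451 became 0.127 with total scaling, -0.0229 with the authors' scaling, -0.000914 with the filter, 0.00853 with block and GC offsets, -0.00557, -0.0100 and 0.000119 with the 250 bp, centre and gene-start rules, and -0.0117 to 0.0493 without 1 library. Between 29 and 25 °C the count stayed at 0 in every alternative, and the median of 0.0106 became -0.0479 with total scaling, -0.0636 with the authors' scaling and -0.0224 to 0.0635 without 1 library. For the 47 named peaks, 820 alternative fits kept the side of the threshold, 106 passed it newly, 54 no longer did and none that passed changed sign. All 54 were fits of the 7 peaks past the threshold, since only those could lose it. lncRNA:CR44885 passed in 20 of 21 alternatives, lncRNA:CR44769 and asRNA:CR46471 in 14 of 21, and lncRNA:CR43097 in 12 of 20. lncRNA:CR44537 and the inner roX1 peak passed in 11 of 21 and lncRNA:CR43263 in 9 of 20. The cause of these moves was not tested. A median member's counting error was 5.80%, beside a biological coefficient of variation of 22.7%.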
